A study of Drosophila melanogaster with 3 samples.

Results

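The genes kirre, rst, sns and hbs were examined for binding of Smox, and every region listed in the body of each gene or within 5 kb of it was taken. These are 4 of the 13945 protein-coding genes annotated on chromosomes 2L, 2R, 3L, 3R, 4 and X, and their windows held 31 of the 6622 thresholded summits and 181 of the 30000 regions of the pooled list. The data are chromatin immunoprecipitation sequencing (ChIP-seq) of whole white prepupae, males and females pooled, from a transgenic Drosophila melanogaster line that stably carries Smox with GFP at its C terminus. The antibody was against GFP. All 3 biological replicates belong to this 1 group, so no treatment, genotype or stage was contrasted. Age is given as unknown, and the labels name neither the promoter of the fusion nor the state of untagged Smox. Region lists hold no expression values, so the stage and tissue could not be checked against marker genes. A summit is the point of highest signal in a called region, as the deposited lists give it, and a rank of 1 is the strongest region of a list by the authors' score. The set of genes was chosen by the summits and ranks that these same lists give. Counts, ranks and densities of summits are therefore descriptions, and no test was applied to them. In whole animals, binding in fewer cells and weaker binding in each cell cannot be told apart.

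The products of the 4 genes are membrane proteins with extracellular immunoglobulin domains, known together as the irre cell recognition module. Kirre (also called Duf) and Rst sit on muscle founder cells and bind Sns and Hbs on fusion-competent myoblasts, which leads to myoblast fusion. The same proteins arrange interommatidial cells of the pupal eye, where Rst and Kirre on some cells bind Hbs and Sns on their neighbours. In nephrocytes Sns and Kirre build a filtration slit related to the slit diaphragm of the vertebrate kidney, whose nephrin and Neph proteins are their relatives. Smox is the SMAD of the Activin branch of TGF-beta signalling, and SMAD proteins can bind the short DNA element GTCT, the SMAD box.

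The sequences below run 75 bases to either side of 6 of the 31 summits, from the Release 6 genome, which is dm6, plus strand, 5′ to 3′, with the SMAD box (GTCT, or AGAC for its other strand) in capitals. The first 3 are the strongest summits at kirre, and none of them holds a SMAD box, so no letter is in capitals.
kirre, pooled rank 274, chrX:3053414-3053564: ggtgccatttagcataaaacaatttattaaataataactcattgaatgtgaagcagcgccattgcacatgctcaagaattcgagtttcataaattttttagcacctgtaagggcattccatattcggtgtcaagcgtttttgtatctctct
kirre, pooled rank 676, chrX:3046088-3046238: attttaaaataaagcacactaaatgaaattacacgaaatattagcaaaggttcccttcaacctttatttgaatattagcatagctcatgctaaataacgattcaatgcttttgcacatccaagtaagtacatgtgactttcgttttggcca
kirre, pooled rank 708, chrX:3041166-3041316: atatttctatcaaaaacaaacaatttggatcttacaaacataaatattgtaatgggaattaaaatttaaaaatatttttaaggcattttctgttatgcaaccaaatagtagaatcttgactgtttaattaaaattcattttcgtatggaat
The next 2 are the strongest kirre summits that do hold a SMAD box.
kirre, pooled rank 984, chrX:3097143-3097293: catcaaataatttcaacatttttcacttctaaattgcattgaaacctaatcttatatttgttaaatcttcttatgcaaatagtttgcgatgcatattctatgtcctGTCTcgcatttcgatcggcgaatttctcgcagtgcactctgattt
kirre, pooled rank 1661, chrX:3039886-3040036: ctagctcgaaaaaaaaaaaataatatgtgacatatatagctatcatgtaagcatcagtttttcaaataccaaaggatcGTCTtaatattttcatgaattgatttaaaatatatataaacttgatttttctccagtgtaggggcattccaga
The last is the strongest summit near rst, which lies upstream of its start.
rst and kirre, pooled rank 2211, chrX:2978168-2978318: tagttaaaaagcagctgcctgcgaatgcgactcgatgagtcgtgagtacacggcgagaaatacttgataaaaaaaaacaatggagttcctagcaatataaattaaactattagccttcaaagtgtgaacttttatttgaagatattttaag

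At kirre (FBgn0028369), Smox summits were numerous, lay mostly in introns, and stood away from the starts of its own transcripts. The gene runs on the plus strand of chromosome X from 2740384 to 3134532, or 394 kb, and has 7 annotated transcripts with 6 distinct start sites. Its window held 31 thresholded summits, more than the window of any other protein-coding gene. The next were sbb with 24, Tet with 22, and shn and ush with 20 each, all in genes of 58.3 to 93 kb. Per length kirre was less extreme, with 0.0767 summits per kb against 0.0581 per kb over all of chromosome X, a ratio of 1.32. Of the 83 genes of 100 kb or more, 14 had a higher density, up to 0.157 per kb at CG43658, and the median of the 83 was 0.0251 per kb.

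Of the 31 summits, 29 lay in introns, 1 in a 3′ UTR, 1 in intergenic sequence and 0 in coding exons. None was within 1 kb of an annotated kirre start, and the median distance to the closest one was 41326 bp. Little of the 404 kb window is coding sequence, since leaving coding exons out moved its density only from 0.0767 to 0.0828 per kb. The surroundings of the 6 starts likewise take up little of the window. These placements are therefore not shown to be particular to kirre, and the share of the window in introns was not measured. A kirre start was the closest protein-coding start for 7 summits. For the other 24 it belonged to another gene, in 2 cases Syx4 and in 1 case N, which are not nested within kirre. In all, 21 other protein-coding genes, rst among them, are nested within it. In all 6 summits (19.4%) lay within 500 bp of a protein-coding start, against 30.2% of all 6600 thresholded summits on these chromosomes.

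**Figure D1:**
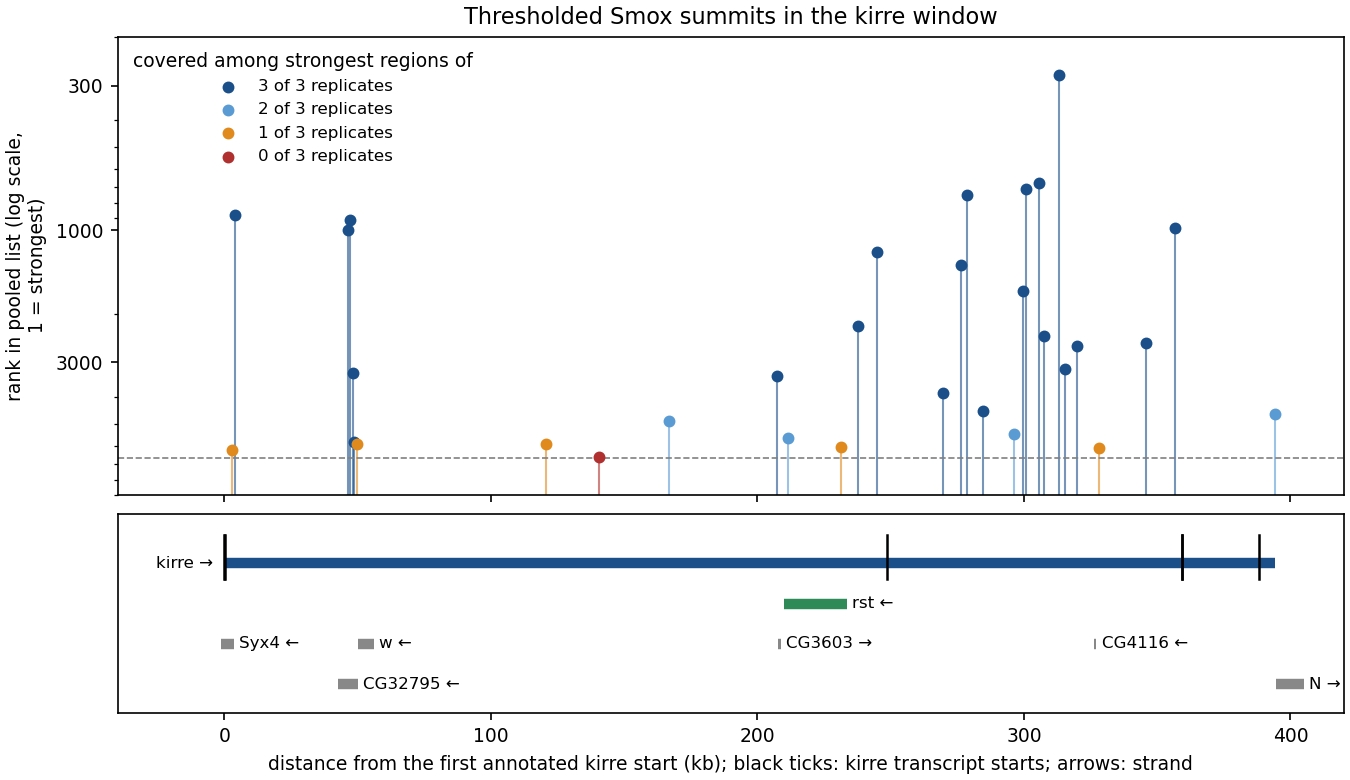
Thresholded Smox summits along the kirre window, by distance from the first annotated kirre start in kb (x axis) and pooled rank on a log scale (y axis, strongest at the top). Colours give the number of replicates with an overlapping region among their 6622 strongest, the dashed line is the limit of the thresholded list, and bars below are genes. The summits at ranks 274, 676, 708, 747 and 984 stand between rst and the kirre starts at 3099550 and 3099582.

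The 4 strongest kirre summits, ranked 274 to 747, lay between rst and the kirre starts at 3099550 and 3099582. This stretch held 5 of the 8 kirre summits in the strongest 1000 regions, and the other 3, ranked 883, 919 and 994, lay before rst. The stretch also contains the kirre start at 2989051. For the transcripts that begin at 3099550 and 3099582 the stretch is upstream sequence. For those that begin before rst its summits lie in introns. The boundary of this stretch was chosen after the positions had been seen. The 126 kb stretch held 17 of the 31 summits, or 0.135 per kb, which is 2.33 times the density of all of chromosome X. The replicates gave 19, 17 and 17 summits there (0.141 ± 0.00919 per kb, SD, n = 3). Replicate overlap was also high there, and 15 of the 17 summits were covered in all 3 replicates.

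The summit at 3053489, the strongest of kirre, had a pooled rank of 274 and ranks of 369, 222 and 257 in replicates 1, 2 and 3. It lay 46061 bp upstream of the start at 3099550. The summit at 3046163 had a pooled rank of 676 and replicate ranks of 838, 662 and 604. All of these ranks fall in the strongest 1000 regions of lists of 30000. The summit at 3041241 was ranked 708 in the pooled list and 757, 686 and 697 in the replicates, and that at 3018862 was ranked 747, with 963, 602 and 821. The summit at 3097218 was the one closest to a kirre start, 2332 bp upstream of 3099550, and was ranked 984 (882, 1379 and 1017 in the replicates). Each of these 5 was present in every replicate, and none was within 1 kb of any protein-coding start.

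The summit at 2985360 lay 3691 bp upstream of the kirre start at 2989051 and had a pooled rank of 1193, with replicate ranks of 1280, 1017 and 1516. The other summits of the stretch had pooled ranks between 1333 and 6110. The weakest of them, at 3068445, lay 883 bp upstream of the start of the nested gene CG4116. It was among the strongest 6622 regions of replicate 1 alone, with ranks of 5705, 7270 and 9273.

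**Figure D2:**
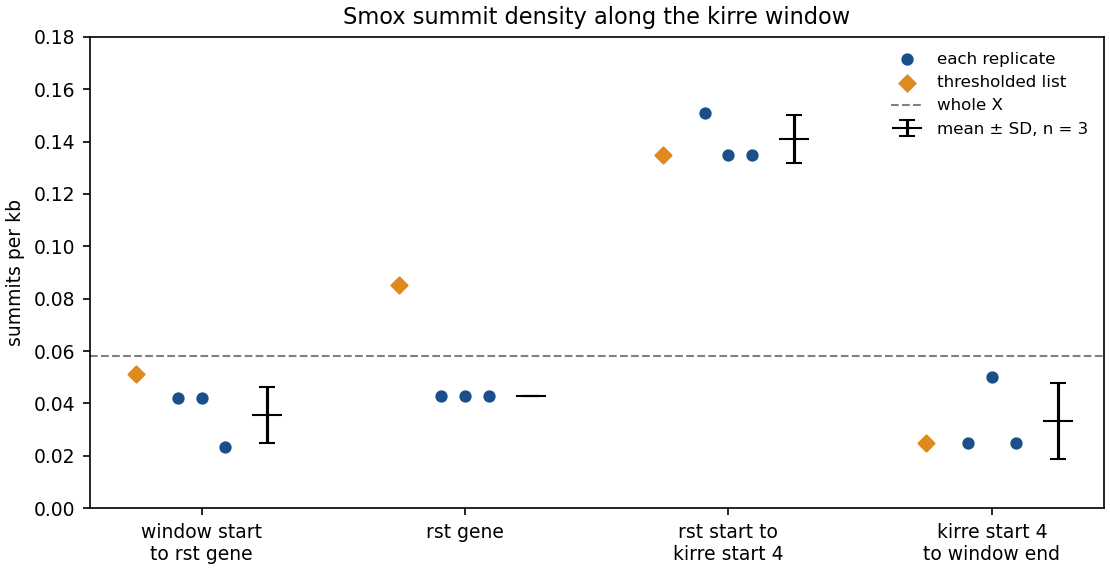
Smox summits per kb (y axis) in 4 stretches of the kirre window (x axis), for the thresholded list (diamonds), each replicate cut to its 6622 strongest regions (circles) and their mean with SD, n = 3. The stretch from the rst start to the fourth kirre start is at 0.135 per kb or more in every list, and the dashed line is the whole of chromosome X at 0.0581.

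The other stretches of kirre carried fewer summits per length. The 215 kb from the start of the window to rst held 11 thresholded summits, or 0.0512 per kb, and 9, 9 and 5 in replicates 1, 2 and 3 (0.0357 ± 0.0107 per kb, SD, n = 3). Replicate 3 thus had the fewest there. The last 40 kb, which hold the kirre starts from 3099550 on and the end of the gene, had 1 thresholded summit and 1, 2 and 1 in the replicates.

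Some summits in the kirre window lay at the promoters of other genes. The summit at 2744262 was 186 bp upstream of the start of Syx4, a syntaxin gene of membrane fusion that overlaps the first kirre start in the opposite direction. It had a pooled rank of 883 and replicate ranks of 853, 1264 and 670. A second, weaker summit at 2743302 lay 344 bp upstream of a Syx4 start, with a pooled rank of 6234. Replicates 1 and 2 ranked it 5284 and 9812, and replicate 3 listed no region there. Inside the nested gene CG32795 there were 5 summits, the strongest at 2787493 (pooled rank 919) and 2786766 (pooled rank 994), and 3 of the 5 were within 1 kb of its start. The next gene, w, which encodes the eye pigment transporter White, held 0 regions of the pooled list and 0 of each replicate list. Most other protein-coding genes nested within kirre likewise held no region in any of these lists. The summit at 3134539 lay beyond the end of kirre and 331 bp upstream of the start of N, which encodes the receptor Notch. Its pooled rank was 4593, and its ranks of 3513, 4898 and 9679 put it outside the strongest 6622 of replicate 3. Altogether 8 of the 31 summits were within 1 kb of the start of another protein-coding gene, and without these 8 the density was 0.0569 per kb, against 0.0581 on chromosome X with all of its summits counted.

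The replicates ordered the kirre summits in nearly the same way. Cut to their strongest 6622 regions, replicates 1, 2 and 3 had 30, 29 and 24 summits in the window (27.7 ± 3.21, SD, n = 3), or 0.0685 ± 0.00795 per kb. Of the 31 thresholded summits, 21 (67.7%) were covered by a region in all 3 of these lists, 4 in 2 lists, 5 in 1 list and 1 in none. Over all thresholded summits on these chromosomes the share in all 3 was 71.8%. Ranks had Spearman rho of 0.914 between replicates 1 and 2 (31 summits), 0.909 between 1 and 3 (30 summits) and 0.937 between 2 and 3 (30 summits). These describe agreement only, since the thresholded list was made from the same replicates. The summit of the overlapping replicate region was displaced by a median of 15.5 bp, and 86 of 92 such pairs were within 100 bp. Where several regions of a replicate overlapped a pooled region, the strongest was taken. The summits at 2788775 and 2788983, 208 bp apart, were thus both given ranks 3319, 3590 and 3607, although replicates 1 and 2 also had a second region there, ranked 6441 and 6428. Replicate 3 had 1 region there.

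**Figure D3:**
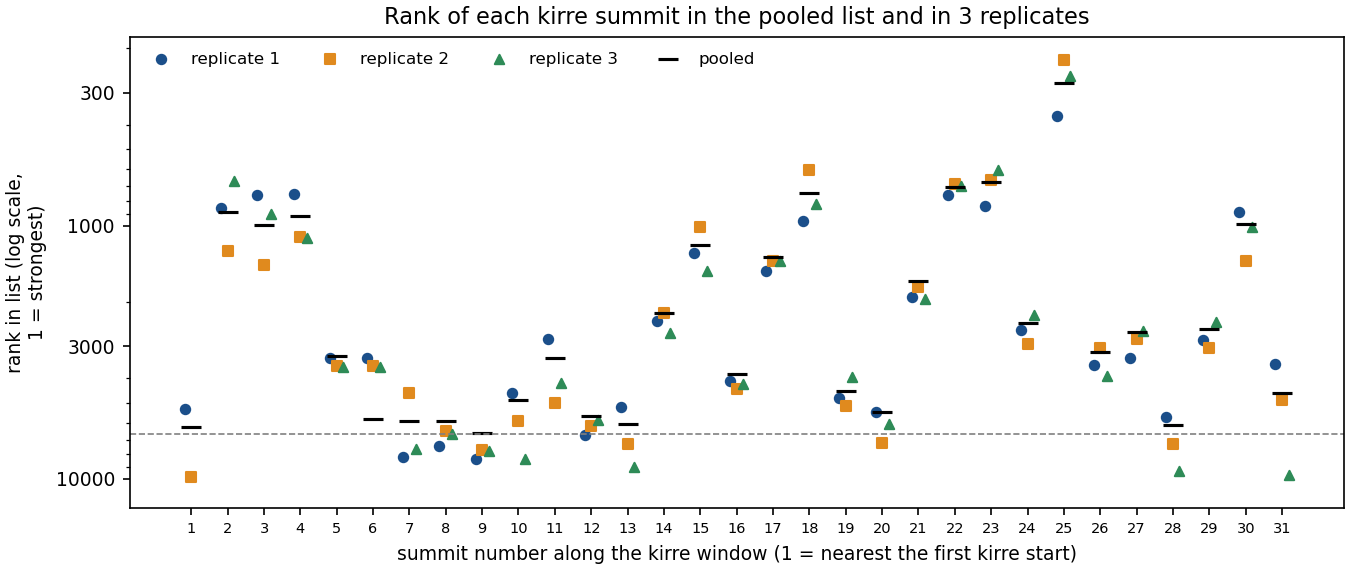
Rank of each of the 31 kirre summits, in order along the chromosome (x axis), in the pooled list (bars) and in replicates 1, 2 and 3 (symbols), on a log scale with the strongest at the top. The dashed line is rank 6622. The strongest, number 25, is at 369, 222 and 257 in the replicates. Some summits near the line have replicate ranks on both sides of it, and summit 1 has no region in replicate 3.

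At the limit of the thresholded list, the summit at 2880916 was just inside with a pooled rank of 6591. No replicate had it among its strongest 6622, where it was ranked 8321, 7688 and 7726. The region at 2990731, just outside at 6706, was ranked 7549, 6066 and 6438, so that 2 replicates ranked it above the limit. At the edges of the window, the closest summits outside were 31488 bp before it, with a pooled rank of 2, and 7709 bp after it, with a pooled rank of 3521.

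At rst (FBgn0003285), nested within kirre on the opposite strand from 2950399 to 2973834, summits were weaker and all are shared with the kirre window. The window of rst held 4 thresholded summits, or 0.12 per kb, and 3 in each replicate, or 0.0897 per kb. The share of all protein-coding genes with at least 1 thresholded summit in such a window was 42.9%, and of the 4 genes 2 had one. The strongest, at 2978243 and shown above, lay 4409 bp upstream of the only rst start and had a pooled rank of 2211, with 2375, 2216 and 2646 in the replicates. The summit at 2947725 lay downstream of rst and 309 bp upstream of the start of the neighbouring gene CG3603 (pooled rank 3345, replicate ranks 2807, 5035 and 4172). It was also within 1 kb of the start of CG17959. The summits at 2978243 and 2947725 were both covered in all 3 replicates.

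The other 2 rst summits lay inside the gene. The summit at 2971853, in an intron 1981 bp downstream of the start, had a pooled rank of 6059 and was ranked 5189, 7263 and 8945. The summit at 2951822 lay in the 3′ UTR of the longer rst transcript, just past the annotated end of the shorter one. It had a pooled rank of 5640 and was ranked 6704, 6195 and 5876. Both came close to the limit of 6622, and each fell beyond it in at least 1 replicate.

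Neither sns nor hbs had a thresholded summit. The gene sns (FBgn0024189) lies on 2R from 8798489 to 8856091, and the nearest thresholded summits to its window were 122448 bp before it and 90185 bp after it. The pooled list had 21 regions in the window, and the strongest had ranks of 7212, 7220 and 8238. The first of these stood in the flank, 328 bp upstream of the start of RyR, the ryanodine receptor gene, and the second in an intron, 20511 bp downstream of the sns start. The third was at the sns promoter itself, 177 bp upstream of the start. The replicates ranked the promoter region 19678, 12530 and 6586, so it was among the strongest 6622 of replicate 3 alone. This was the sole sns summit in any of the 3 cut lists.

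At hbs (FBgn0287864), on 2R from 15011396 to 15042134, the pooled list had 17 regions. The strongest, at 15046157 in the flank after the gene, had a pooled rank of 6710, just under the limit, and was ranked 6797, 6216 and 11087. The next, in an intron at 15027503, had a pooled rank of 8830 and ranks of 11823, 5936 and 19023. Both were among the strongest 6622 of replicate 2 alone, which gave hbs counts of 0, 2 and 0 in replicates 1, 2 and 3. The region nearest to the hbs start, 13 bp upstream of it, was ranked 22527 in the pooled list. Summits of the thresholded list lay 5750 bp before and 7229 bp after the hbs window, with pooled ranks of 5251 and 655.

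**Figure D4:**
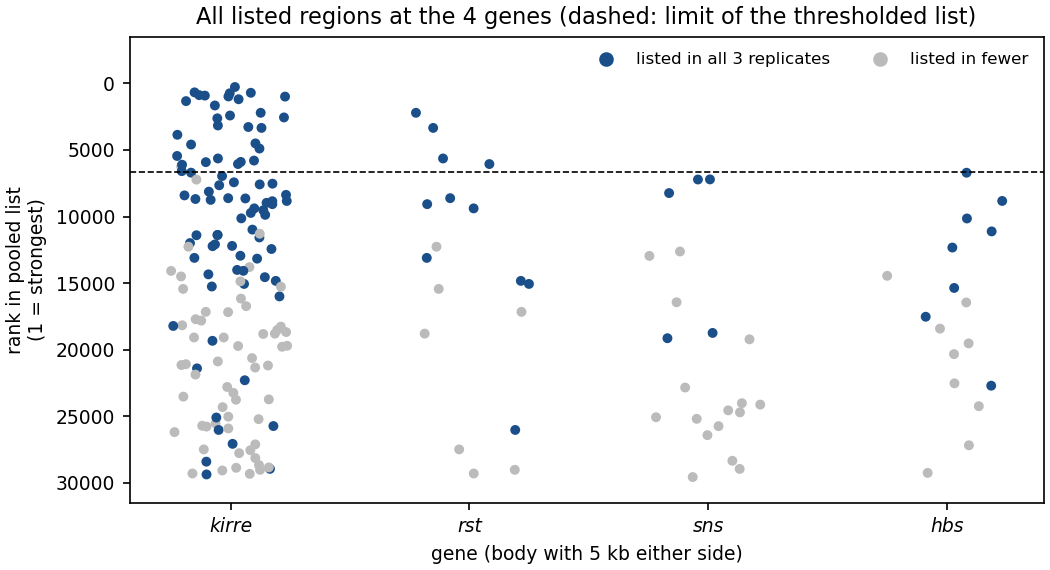
Every region of the pooled list in the windows of kirre (143), rst (18), sns (21) and hbs (17), by pooled rank (y axis, strongest at the top), in dark where all 3 whole replicate lists had an overlapping region. Points are spread sideways within a gene for legibility. Regions of kirre and rst extend above the dashed limit of the thresholded list and those of sns and hbs stay under it.

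Over the whole lists, strong and weak regions together, the genes lay closer. The pooled list was deposited as peaks and background for input to IDR, so its weak regions need not be bound. Each whole list holds 30000 regions, and similar densities in it do not show similar weak binding. The pooled list held 0.354 regions per kb at kirre, 0.538 at rst, 0.311 at sns and 0.417 at hbs. The whole replicate lists gave 0.319 ± 0.0203 per kb at kirre, 0.459 ± 0.0457 at rst, 0.276 ± 0.0759 at sns and 0.425 ± 0.0511 at hbs (SD, n = 3). The means of rst and hbs lay within 1 SD of each other. The mean of kirre lay within 1 SD of that of sns by the wider SD of sns, though not by its own. All 3 replicates listed 84 of the 143 kirre regions (58.7%), 11 of the 18 at rst (61.1%), 8 of the 17 at hbs (47.1%) and 5 of the 21 at sns (23.8%).

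No start of the 4 genes had a pooled region above the limit of 6622 within 1 kb. The strongest was that of sns, at a pooled rank of 8238, with ranks of 19678, 12530 and 6586 in the replicates, so that replicate 3 ranked it above the limit. The pooled region closest to the rst start lay 20 bp upstream of it with a rank of 13106, and its replicate ranks were 19123, 8670 and 19684. At the neighbouring kirre starts 3099550 and 3099582 the closest region was ranked 15255 in the pooled list and 18104, 13009 and 22262 in the replicates. At the kirre start 2989051 it was ranked 21870, and replicate 3 had no region within 1 kb. The pooled list had no region within 1 kb of the first pair of kirre starts or of the last one. A thresholded summit within 1 kb of a start was found for 0 of the 4 genes and for 18.9% of all protein-coding genes.

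**Figure D5:**
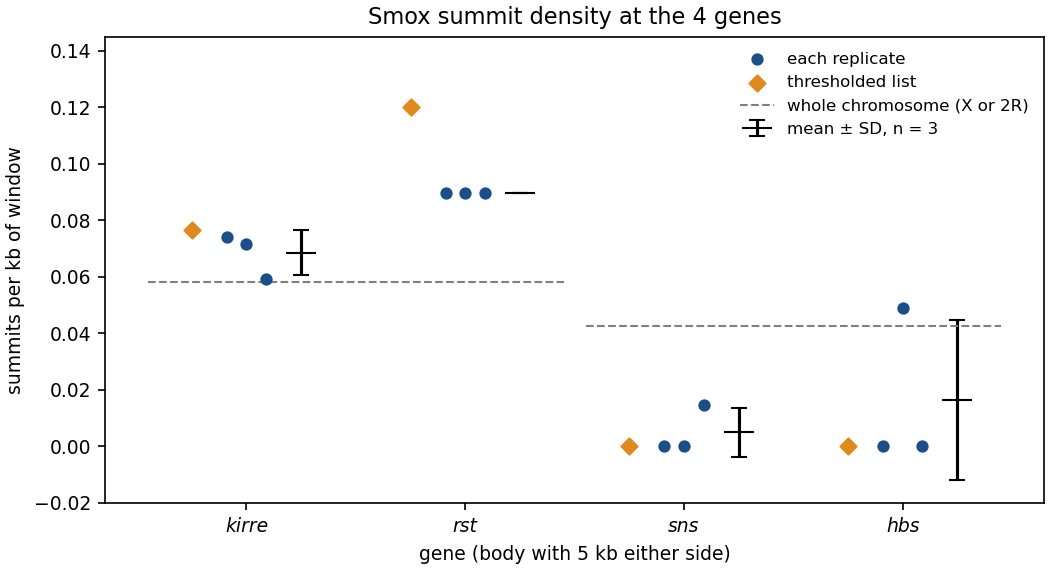
Smox summits per kb of window (y axis) at kirre, rst, sns and hbs for the thresholded list (diamonds), for the 6622 strongest regions of each replicate (circles) and for the mean of the replicates with SD, n = 3. Dashed lines give the thresholded density of the whole chromosome, 0.0581 per kb for X and 0.0426 for 2R. The values of kirre and rst lie above their line, and those of sns and hbs lie below theirs except for replicate 2 at hbs.

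In order of density the thresholded list gave rst, kirre, and then hbs and sns at 0. The replicate means were 0.0897 per kb at rst, 0.0685 ± 0.00795 at kirre, 0.0164 ± 0.0283 at hbs and 0.00493 ± 0.00854 at sns (SD, n = 3). No replicate of sns or hbs reached the lowest replicate of kirre, which was 0.0594 per kb, while sns and hbs overlapped. Every rst summit is also a kirre summit, so these genes are not independent of each other. Genes without a summit are common. Of the 783 protein-coding genes of 20 to 60 kb, the class of sns and hbs, 27.7% had no thresholded summit, and over all lengths 57.1% had none. A summit in the gene body alone was found for 12.5% of all genes and for 2 of the 4, with 30 at kirre and 2 at rst. The median gene length was 2.17 kb over all genes and 44.2 kb for the 4, and the part of length in these shares was not tested. In the replicate lists the share of genes with a summit in the window was 45.9%, 45.1% and 47.7%, and the number of the 4 genes was 2, 3 and 3.

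The kirre summits were AT-rich. The 31 windows, 75 bases to either side of the summit, had a mean GC content of 31.1% ± 5.28 (SD over summits), between 21.9% and 42.4%. Windows centred 500 bp to either side of the same summits had 42.2%, the whole kirre window 41.4%, and all thresholded summits 33.3%. The replicate lists gave 32.5%, 32.9% and 30.4% at kirre. Regions of the kirre window under the threshold had 36.2%, and all pooled regions of sns and hbs 44.8% and 42.7%.

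Short elements known for factors of signalling and development were counted on both strands of the same windows, and elements may overlap. The SMAD box GTCT was in 10 of the 31 kirre windows (32.3%), against 46.8% of the 62 windows 500 bp away and 41.2% of all thresholded windows. The GC-rich SMAD element GGCGCC was in 0 of 31, against 1.53% of all. The homeodomain core TAATTA was in 2 (6.45%, against 14.8% of all), and 1 of these was the AT-rich window of rank 708 shown above. The E-box CANNTG, which muscle and neural basic helix-loop-helix factors can bind, was in 13 (41.9%, against 46.7%), with 2 copies in the strongest window. The string GAGAG, part of GAGA factor sites, was in 5 (16.1%, against 14.6%), and the DRE palindrome TATCGATA was in 0 (1.14% of all). None of these elements was in more than 13 of the 31 windows. A match here is a run of letters and not a shown binding site.

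Few genes resemble kirre in length. Apart from kirre, 8 protein-coding genes are between 0.5 and 2 times as long and do not overlap the windows of the 4 genes. The one closest to kirre over the 3 replicate lists was Ten-a, a teneurin of synaptic partner matching, with a mean absolute difference of 0.0331 summits per kb. Ten-a had 10, 12 and 10 summits in the replicates (0.0332, 0.0398 and 0.0332 per kb) and 11 in the thresholded list. Its highest replicate was below the lowest of kirre at 0.0594. The gene l(3)80Fg came next with 1 thresholded summit. The other 6, bru3, Pzl, Snap25, lovit, CG17684 and DIP-lambda, had 0 in the thresholded list and in each cut replicate list. They tie at 0.0685, which is the mean replicate density of kirre itself, so they resemble kirre in length alone. How well reads can be placed at these genes is not known.

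Other genes of myoblast fusion and the slit diaphragm gave a mixed picture. A list of 21 of them had 10 with a thresholded summit in the window (47.6%), against 42.9% of all genes. The 11 without were Vrp1, WASp, Arf6, Ced-12, lmd, sing, SCAR, Hem, Rac1, dock and Crk. In the gene body alone 9 of the 21 (42.9%) had a summit, against 12.5% of all genes, and within 1 kb of a start 9 (42.9%), against 18.9%. In replicates 1, 2 and 3 the shares with a summit in the window were 52.4%, 57.1% and 66.7%, against 45.9%, 45.1% and 47.7% of all genes. The strongest was at Mef2, the transcription factor gene of muscle differentiation, with a pooled rank of 44 and 39, 66 and 44 in the replicates, 1029 bp upstream of its nearest start. The gene pyd, which encodes the ZO-1 relative at cell junctions, is 105 kb long and had 12 summits in its window, 11 of them in the gene, the strongest at rank 479 (548, 490 and 450). The strongest summits near CASK, a scaffold gene of cell contacts, and near mbc and rols had ranks of 619, 636 and 848. Mbc is the exchange factor that activates Rac in fusion, and Rols is the adaptor that binds Kirre inside the founder cell. At mbc the replicate ranks were 645, 673 and 650, and at rols 879, 929 and 802. The gene siz, which encodes an exchange factor for Arf, is 40.9 kb long and had 12 summits in its window, or 0.236 per kb, 9 of them in the gene itself. Among the strongest 1000 pooled regions 5 of the 21 genes had a summit in the window, and of the 4 receptor genes 1 had, kirre. These are 23.8% and 25%, and the share over all genes was 14.3%.

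Among 24 other genes of immunoglobulin superfamily receptors and adhesion proteins, 20 had a thresholded summit (83.3%), against 42.9% of all genes. In the gene body alone 16 had one (66.7%, against 12.5%), within 1 kb of a start 7 (29.2%, against 18.9%), and among the strongest 1000 regions 4 (16.7%, against 14.3%). In replicates 1, 2 and 3 the shares were 75%, 79.2% and 83.3%. These genes had a median length of 39 kb, against 6.59 kb in the fusion list and 2.17 kb over all genes, and of all genes of 20 to 60 kb 72.3% had a summit. The part that length plays in the counts was not tested. The median density was 0.0517 per kb in the immunoglobulin list and 0 in the fusion list and over all genes. The strongest summits were at tutl, at rank 300 (329, 294 and 327 in the replicates), 356 bp upstream of a start, and at sdk, at rank 316 (299, 252 and 400), 195 bp upstream of a start. Tutl is an axonal receptor and Sdk a junction protein. The strongest near fra, the netrin receptor gene, near bdl and near robo1, a Slit receptor gene, had ranks of 738, 847 and 1100. The count of 31 at kirre was above the highest of this list, 10 at both Fas3 and ed. In density kirre lay inside its range, which reached 0.237 per kb at Ama, with ed at 0.106 and Fas3 at 0.12. The 4 members with no summit were Lac, klg, robo3 and ihog.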

How the data were processed

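Peak lists from ChIP-seq of 3 biological replicates were analysed. The file descriptions deposited beside each sample show that the authors called regions per replicate and on all replicates pooled, each with 1 further alignment file, and thresholded them by the irreproducible discovery rate (IDR). All 6622 thresholded regions keep their pooled rank, so the thresholded list equals the 6622 strongest pooled regions by score. A thresholded region need not be among the strongest of every replicate. Per the labels, chromatin was sonicated to 200 to 800 bp. No source used here names the aligner, caller or cutoff. Each deposited line holds a score on an unstated scale, used only for ranks within a list, a −log10 q-value as deposited, used in 1 alternative, and a summit offset. Read counts are not given, so depth is unknown.

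Only the dm6 lists were used. Their coordinates were joined to BDGP6.54 genes from Ensembl release 115 and to the RefSeq Release 6 sequence. Summits were placed at start plus offset, and replicate lists of 30000 regions were cut to their 6622 strongest. Overlap needed 1 bp. Of the 45 listed genes 44 matched by name and 1, Arf51F, by its present symbol Arf6. Genes named are the 4 genes, genes whose start lies within 1 kb of a summit in their windows, the 5 strongest of each list and the genes closest to kirre in summits per kb. Genes outside that rule, such as w, RyR, siz, Fas3 and ed, the genes with the most or densest summits, and list members with no summit, were named after their values were seen. The members and lists were chosen with earlier results of these data known. Counting and motif functions were tested on simulated data, with Python 3.11.15 and pandas 2.3.3.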

Additional observations from a re-analysis of the deposited data

How the results depend on the processing

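Of 96 alternative values for 14 results, 69 stayed within 1.5 times (counts) or 1 SD of the replicates (other values), and 27 moved. No paired analysis was possible because there was 1 group. Most of the moved values came from lists of another length. Among the strongest 1000 pooled regions kirre had 8 summits (0.0198 per kb), rst 0 (0 per kb), the fusion list 5 genes of 21 (23.8%) and the immunoglobulin list 4 of 24 (16.7%), against 14.3% of all genes. In the whole pooled list the counts were 143 at kirre, 18 at rst, 21 at sns and 17 at hbs, or 0.354, 0.538, 0.311 and 0.417 per kb, and the whole replicate lists gave 0.319 per kb at kirre. At rst the gene body alone held 2 summits (0.0853 per kb), 1 kb either side 2 (0.0786 per kb), and 10 kb either side 4 (0.0921 per kb). Outside coding exons rst had 0.138 per kb. The 3 replicates had the same count at rst, so their SD was 0 and any change in its density was counted as moved. Within 1 kb of a start, 7 of the 24 genes of the immunoglobulin list (29.2%) had a summit, against 18.9% of all genes. The GC content of kirre windows was 28.8% within 25 bases of the summit and 37.2% in the longer window tried. Chosen after seeing the data, a kirre window from 5 kb before the start at 2989051 held 17 summits (0.109 per kb). Leaving out summits within 1 kb of another gene's start, also chosen after seeing the data, gave 23 (0.0569 per kb). The cause of these moves was not tested. Leaving out each replicate gave a kirre density of 0.0656 to 0.073 per kb and 22 to 23 summits covered in both others. Depth is unknown, so a region missing from a list may be absent or may not have been detected there.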
